A study of Mus musculus with 2 samples.

Results

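*Il6* and 9 chemokine genes (*Cxcl1*, *Cxcl2*, *Cxcl5*, *Cxcl13*, *Cxcl14*, *Ccl2*, *Ccl7*, *Ccl11* and *Ccl8*) were followed across fibroblasts and myeloid cells sorted from healing and intact mouse femora. The genes were chosen by symbol as ligands that fibroblasts are known to secrete, with earlier results of these data known. They are 10 of the 32285 genes counted, and their unique molecular identifiers (UMIs, 1 per captured transcript) were read in every kept cell. Both libraries were made from the same 3 pooled littermates of the genotype Clec3b.creERT2; Ai14.R26.tdTomato, which had a stabilized fracture of the right femur at 6 weeks of age. The callus library (treatment: Fracture) held tissue of the broken femur 3 weeks after surgery, and the intact library (treatment: None) held the shaft of the uninjured femur with its muscle. All mice had received tamoxifen 2 weeks before surgery, so both libraries carry the knocked-in creERT2 allele, the reporter and the drug. In this allele the recombinase follows the *Clec3b* coding sequence, so tdTomato marks cells that expressed *Clec3b* at the time of tamoxifen and their progeny. The cells were freed in 2 rounds of 30 min with collagenase at 37 °C and sorted for tdTomato before droplet loading. Such a sort is meant to leave out blood cells, yet both libraries held many leukocytes, and tdTomato is not among the counted genes. The myeloid cells are therefore described as cells of these libraries and not as *Clec3b* lineage.

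Chemokines are small secreted proteins that guide leukocytes along gradients by binding receptors with 7 membrane passes. CXC ligands with an ELR motif, such as CXCL1, CXCL2 and CXCL5, draw neutrophils through CXCR2, whereas CXCL13 attracts B cells through CXCR5. CC ligands act mainly on monocytes, macrophages and eosinophils: CCL2 and CCL7 bind CCR2, CCL11 (eotaxin) binds CCR3, and mouse CCL8 binds CCR8. IL6 is a cytokine that signals through IL6RA and GP130, the product of *Il6st*, to STAT3, and it acts on bone, muscle and liver as well as on immune cells. Several of these genes are known targets of NF-kB, a transcription factor switched on by IL1, TNF and microbial products.

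Of the 10 genes, 7 stood in 2 clusters in the mouse gene annotation (GENCODE vM21, GRCm38). *Ccl2*, *Ccl7*, *Ccl11* and *Ccl8* stood within 81.2 kb of chromosome 11 (chr11:82035571-82116799) beside 1 further protein-coding gene, *Ccl12*. *Cxcl5*, *Cxcl1* and *Cxcl2* stood within 147 kb of chromosome 5 (chr5:90759360-90905938) with *Ppbp*, *Pf4*, *Cxcl3* and *Cxcl15*. *Cxcl13* (chr5:95956951-95961068) and *Il6* (chr5:30013114-30019981) lay elsewhere on chromosome 5, and *Cxcl14* lay on chromosome 13 (chr13:56288643-56296551, minus strand). Promoter windows from 250 bases before to 50 bases after the start were at hand for 6 of the 10 genes (RefSeq, GRCm38.p6), and these were searched on both strands for the NF-kB consensus. The motif was present in 2779 of 32851 windows genome-wide (8.46%) and in those of *Il6*, *Cxcl1* and *Cxcl2*, but these letters were not found in the windows of *Cxcl13*, *Cxcl14* or *Ccl8*. *Cxcl5*, *Ccl2*, *Ccl7* and *Ccl11* had no window. *Il6*, *Cxcl1* and *Cxcl2*, and also *Ccl2* and *Ccl7*, which had no window, were at least 2-fold higher in the *Ptx3*-high than in the *Ptx3*-low *Pi16* fibroblasts described further on. For *Cxcl2* this rested on few cells. A link between the motif and these levels was not tested. The 3 matches are shown with 10 bases on each side, the match in capitals.
Il6 (chr5:30013060-30013089, plus strand): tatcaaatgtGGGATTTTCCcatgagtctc
Cxcl1 (chr5:90891164-90891193, plus strand): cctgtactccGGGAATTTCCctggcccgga
Cxcl2 (chr5:90903792-90903821, plus strand): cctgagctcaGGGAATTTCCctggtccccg
The match of *Il6* spanned bases 44 to 35 before the start, that of *Cxcl1* bases 71 to 62 and that of *Cxcl2* bases 97 to 88. *Cxcl1* and *Cxcl2* had the same 10 letters, and each also held a minus-strand match shifted by 1 base. A match describes letters and does not show binding.

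The intact library held 1872 barcodes with 12112002 UMIs and the callus library 3987 barcodes with 36714322 UMIs. After barcodes with fewer than 500 genes or more than 10% mitochondrial UMIs were left out, 1207 intact and 3295 callus cells were kept, with median depths of 4939 and 6843 UMIs, and 1 barcode sequence occurred in both libraries. The fibroblast gate was passed by 286 intact cells (23.7% of those kept) and 208 callus cells (6.31%), and 414 and 1490 cells were myeloid. *Xist*, which is transcribed in cells with more than 1 X chromosome, was checked in fibroblasts of 5000 UMIs or more and was present in 195 of 200 (97.5%) for the intact library and 153 of 156 (98.1%) for the callus. The same cells held 1 and 0 UMIs of 4 Y-linked genes, which goes against the label of male mice for both libraries. Each condition was 1 library, so no difference between callus and intact had a replicate check and no test was made between them. Levels are given as UMIs of the gene per 1000000 UMIs of the summed cells (CPM). The ranges after levels, shares and ratios are exact 95% intervals that cover counting error only, not the spread between cells or mice.

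Fibroblasts were split by marker genes that are not among the 10. *Pi16* fibroblasts resemble the adventitial universal fibroblasts of many organs, and those with at least 10 UMIs of *Ptx3*, *Has1* and *Tnfaip6* together per 10000 UMIs are called *Ptx3*-high (115 intact and 57 callus cells), the others *Ptx3*-low (96 and 63). *Col15a1* fibroblasts, which carry basement membrane genes, numbered 27 in the intact library and only 9 in the callus, too few to describe. *Thbs4 Cilp* fibroblasts, with genes of tendon and fascia, numbered 33 and 66, and intermediate cells 15 and 13. The *Thbs4 Cilp* gate (at least 5 UMIs of its marker list per 10000) was applied first, so cells with *Col15a1* markers could fall in it. The unsupervised Leiden cluster named *Col15a1* held 50 intact and 21 callus cells, so the number of these cells depends on the gate. The split of the *Pi16* cells cuts a range and does not mark a type: between 5 and 20 UMIs per 10000 lay 71 of the 211 intact cells (33.6%) and 38 of the 120 from the callus (31.7%).

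Only some of the 10 genes were mainly fibroblast transcripts in these libraries (heat map of levels by cell type). *Cxcl13* and *Ccl11* were fibroblast genes in both libraries, with 100% and 97.9% of their UMIs in kept intact cells and 91.2% and 91.5% of those in callus cells falling in fibroblasts. *Cxcl1* was close to them, with 90.9% and 74.1%. *Il6* lay in fibroblasts for 93.0% of its intact UMIs but 47.3% of its callus UMIs, where 39.1% were in myeloid cells. *Cxcl14* went from 99.8% to 30.1%, and in the callus 54.9% came from marrow stromal cells, a gate that no intact cell passed. *Ccl7* went from 85.9% to 32.5%, *Ccl8* from 58.2% to 14.0% and *Ccl2* from 45.6% to 3.43%. *Cxcl2* was a myeloid transcript in both libraries, with 91.4% and 81.4% of its UMIs in myeloid cells and 1.97% and 0.578% in fibroblasts. These shares move with the numbers of cells of each type in a sort, so the levels per type below carry the comparison. *Cxcl5* gave 0 UMIs in the intact and 4 in the callus library and is not described further. The 25 callus osteoblasts held no UMI of any of the 10 genes, where 3 UMIs would have been 5.24 CPM.

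**Figure D1:**
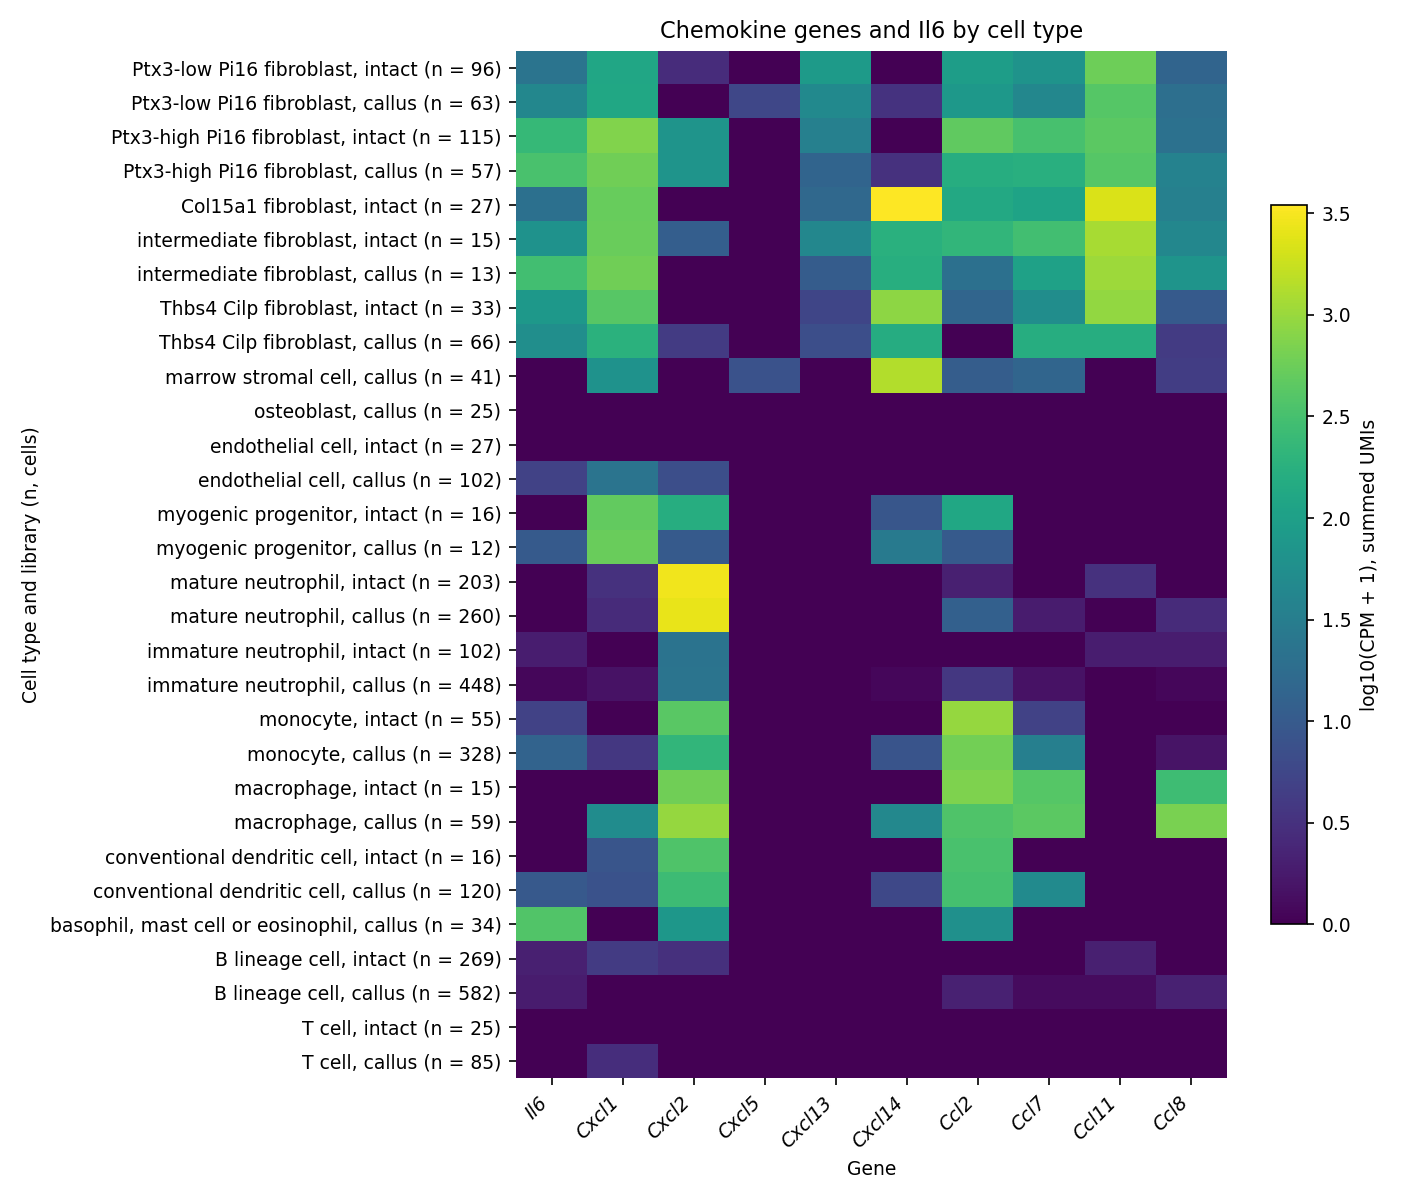
Level of each of the 10 genes (columns) in each cell type and library with at least 10 cells (rows, n in cells), as log10(CPM + 1) of summed UMIs. *Cxcl1* and *Ccl11* are bright in the fibroblast rows, *Cxcl2* in mature neutrophils (2958 and 2692 CPM), and *Cxcl14* in *Col15a1* fibroblasts (3477 CPM) and marrow stromal cells (1343 CPM).

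*Cxcl1*, the main fibroblast ligand of the neutrophil receptor CXCR2 here, stood highest in *Ptx3*-high *Pi16* fibroblasts in the intact library, and in the callus these were level with the intermediate cells. Its level in *Ptx3*-high cells was 735 CPM (682-791) in the intact and 585 CPM (518-659) in the callus library, and a UMI was present in 44 of 110 and in 48.1% of cells thinned to 2000 UMIs (59.1% and 61.4% unthinned). *Ptx3*-low cells held 124 CPM (96.4-157) and 128 CPM (96.5-167). *Col15a1* cells held 515 CPM (421-623), intermediate cells 535 and 602 CPM, and *Thbs4 Cilp* cells 416 CPM (336-509) and 182 CPM (151-218). The order of the gated cells in the intact library therefore ran from *Ptx3*-high cells to a middle group of intermediate, *Col15a1* and *Thbs4 Cilp* cells whose intervals overlapped one another, and then to *Ptx3*-low cells, while the interval of the 15 intermediate cells (398-703) also reached that of the *Ptx3*-high cells. The place of the *Thbs4 Cilp* cells depended on the gate. Under Leiden clusters their intact level, given further on, lay below that of the gated *Ptx3*-low cells. In B lineage cells, taken as a type that should lack these genes, *Cxcl1* gave 3.15 and 0 CPM and was present in 0.810% and 0% of thinned cells (1.12% and 0% unthinned) at median depths of 2870 and 3237 UMIs. Outside the fibroblasts it was also seen in myogenic progenitors, the muscle satellite cells and their daughters, at 485 and 539 CPM, though single cells gave 39 of their 61 and 45 of their 60 UMIs. Mature neutrophils held 2.16 and 1.71 CPM and callus macrophages 51.5 CPM.

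*Il6* was restricted further. In *Ptx3*-high fibroblasts it reached 236 CPM (206-269) in the intact library and 336 CPM (285-392) in the callus, and 22.7% and 40.4% of thinned cells carried it (46 of 115 and 26 of 57 cells unthinned). The level was 21.9 CPM (11.3-38.3) and 41.9 CPM (24.9-66.3) in *Ptx3*-low cells, 19.4 CPM (5.29-49.7) in intact *Col15a1* cells, and 76.0 CPM (44.3-122) and 55.5 CPM (38.9-76.9) in *Thbs4 Cilp* cells. Intermediate cells held 62.9 CPM (23.1-137) and 291 CPM (196-416). Single cells set some of these levels: 13 of the 17 intact *Thbs4 Cilp* UMIs lay in 1 cell, as did 26 of the 30 UMIs of the 13 callus intermediate cells. The highest *Il6* level of any type in the callus was outside the fibroblasts, in the group of basophils, mast cells and eosinophils, at 385 CPM (325-454), an interval that overlapped that of the *Ptx3*-high fibroblasts. Of these 34 cells 24 carried it, and 132 of the 143 UMIs fell in cells with at least 5 UMIs of *Mcpt8*, a basophil protease. The 5 cells of this gate in the intact library held 7 *Il6* UMIs. Monocytes held 3.97 and 12.5 CPM, and neither mature neutrophils nor macrophages gave a UMI in either library. The carrier share in B lineage cells was 0.405% and 0.182% after thinning (0.372% and 0.172% before).

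*Ccl2* and *Ccl7*, the monocyte attractants, were shared between fibroblasts and myeloid cells in different proportions. *Ccl2* measured 480 CPM (437-526) in intact and 159 CPM (125-200) in callus *Ptx3*-high fibroblasts, 91.3 CPM (67.8-120) and 76.9 CPM (52.9-108) in *Ptx3*-low cells, 136 CPM (90.4-197) in intact *Col15a1* cells, and 13.4 and 0 CPM in *Thbs4 Cilp* cells. One cell gave 34 of the 50 intact and 1 gave 17 of the 33 callus UMIs of the *Ptx3*-low cells. Monocytes held more *Ccl2* than any fibroblast type, at 950 CPM (867-1039) and 620 CPM (595-646), with 44.4% and 40.4% of thinned cells carrying it (63.6% and 56.4% unthinned), and macrophages held 722 CPM (530-960) and 368 CPM (297-451). *Ccl7* measured 321 CPM (286-359) and 170 CPM (135-212) in *Ptx3*-high cells and 63.9 CPM (44.5-88.9) and 41.9 CPM (24.9-66.3) in *Ptx3*-low cells. It was not confined to *Pi16* cells among fibroblasts: callus *Thbs4 Cilp* cells also held it, with most of their UMIs in 1 cell. Among myeloid cells *Ccl7* was a macrophage rather than a monocyte gene: macrophages held 399 CPM (261-585) and 447 CPM (369-538), whereas monocytes held 3.97 and 32.3 CPM.

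*Ccl11* was the most evenly spread of the genes among fibroblasts. After thinning, 58.4% of the fibroblasts of the intact library and 78 of the 195 of the callus library carried it (75.2% and 56.7% unthinned), against 0% of B lineage cells in both (0.372% and 0.172% unthinned). Intact *Col15a1* fibroblasts stood highest at 2215 CPM (2016-2427), followed by intermediate cells at 1195 CPM (986-1436) and *Thbs4 Cilp* cells at 912 CPM (791-1046), whose intervals overlapped. *Ptx3*-low cells at 575 CPM (513-642) and *Ptx3*-high cells at 450 CPM (409-494) closed the order of the intact library. The order did not hold in the callus, where *Thbs4 Cilp* cells stood below the *Pi16* cells, whose bins described below held 338 to 438 CPM. Osteoblasts and marrow stromal cells gave no UMI, and all 414 intact myeloid cells together gave 3.

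*Cxcl14*, a chemokine of many epithelia and stromal cells, separated the fibroblast types most sharply. It was present in 24 of 27 intact *Col15a1* cells at 3477 CPM (3227-3742), in 14 of 33 intact *Thbs4 Cilp* cells at 881 CPM (762-1013), and in 39 of 41 callus marrow stromal cells at 1343 CPM (1215-1481). In the 211 intact *Pi16* fibroblasts no UMI was found, and the 120 callus *Pi16* fibroblasts gave 2. *Cxcl13*, the B cell attractant, ran the other way. It measured 84.0 CPM (61.5-112) and 46.6 CPM (28.5-72.0) in *Ptx3*-low cells, 34.1 CPM (23.5-48.0) and 12.9 CPM (4.74-28.1) in *Ptx3*-high cells, 14.6 CPM in intact *Col15a1* cells, and 4.47 and 6.17 CPM in *Thbs4 Cilp* cells. Its 87 intact UMIs came from 31 fibroblasts, and no myeloid cell of either library gave one.

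*Cxcl2* and *Ccl8* were faint in fibroblasts. *Cxcl2* measured 66.2 CPM (51.0-84.6) and 66.7 CPM (45.3-94.6) in *Ptx3*-high cells, from 64 UMIs in 9 cells and 31 UMIs in 2 cells, and 1.83 and 0 CPM in *Ptx3*-low cells. With fibroblasts that held a *Ptprc* or *Tyrobp* UMI left out, the *Ptx3*-high levels were 66.8 and 76.0 CPM. Thinned carriers were 5.45% and 3.85% of *Ptx3*-high cells (7.83% and 3.51% unthinned) against 0.810% and 0% of B lineage cells (0.743% and 0% unthinned). Mature neutrophils carried it in 57.0% and 43.9% of thinned cells (64.0% and 51.9% unthinned). *Ccl8* measured 12.8 to 36.6 CPM in *Pi16* fibroblasts, against 276 CPM (164-437) in intact and 673 CPM (576-782) in callus macrophages, and 1 callus macrophage gave 29 of their 170 UMIs.

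The *Ptx3*-high and *Ptx3*-low *Pi16* fibroblasts of the same library differed in 6 of the 8 genes that had at least 20 UMIs. In the intact library 5 of 8 genes were at least 2-fold higher in *Ptx3*-high cells and 1 was at least 2-fold lower, where 3.88% and 2.12% of all 7414 genes tested were so. The callus gave the same counts, 5 higher and 1 lower of 8, against 4.28% and 3.89% of 5890 genes. Since the genes were chosen with earlier results of these data known, these counts describe them and are no test. The median log2 ratio of the genes was 2.36 in the intact and 1.53 in the callus library, and that of all genes was -0.0280 and -0.0328. *Il6* was 10.8-fold (6.04-21.1) higher in intact and 8.0-fold (4.90-13.9) higher in callus *Ptx3*-high cells. The corresponding ratios were 5.92 (4.61-7.70) and 4.57 (3.41-6.22) for *Cxcl1*, 5.02 (3.53-7.34) and 4.05 (2.41-7.19) for *Ccl7*, and 5.26 (3.92-7.19) and 2.07 (1.36-3.22) for *Ccl2*. For *Cxcl2* the intact ratio rested on 64 UMIs against 1 (36.3, 6.28-1455), and in the callus the level was at least 9.54-fold higher than 3 UMIs summed over the 63 *Ptx3*-low cells would give. *Cxcl13* was lower, with ratios of 0.407 (0.252-0.650) and 0.277 (0.0910-0.715). *Ccl11* gave 0.783 (0.675-0.908) and 0.982 (0.794-1.21) and did not reach 2-fold, nor did *Ccl8* at 1.54 (0.619-4.33) and 1.96 (0.802-5.25).

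Some of these ratios rested on single cells or on the gate. With the 1 cell of most UMIs left out of each group, *Il6* came to 22.8 and 25.7 and intact *Ccl2* to 13.4. Callus *Ccl2*, the weakest of the higher genes, came to 1.27 when cell types were taken from unsupervised Leiden clusters and to 4.58 when fibroblasts with a *Ptprc* or *Tyrobp* UMI were left out. *Cxcl1* came to 9.36 in the intact library and *Ccl7* to 10.8 in the callus under the clusters.

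Binning the *Pi16* fibroblasts by the summed UMIs of *Ptx3*, *Has1* and *Tnfaip6* showed how the levels changed along the range. In the intact library, cells with none, fewer than 10, 10 to below 50, and 50 or more UMIs per 10000 (39, 57, 85 and 30 cells) held 0, 30.9, 119 and 574 CPM of *Il6*. *Cxcl1* measured 0, 175, 436 and 1593 CPM over the same bins, *Ccl2* 6.29, 126, 145 and 1445 CPM, and *Ccl7* 0, 90.0, 127 and 879 CPM. For *Ccl2* and *Ccl7* there were steps out of the lowest bin and into the top bin, while the intervals of the middle bins overlapped (93.3-167 and 118-176 CPM for *Ccl2*). The first *Ccl2* step rested largely on 1 cell, which held 34 of the 49 UMIs of the bin of fewer than 10. *Cxcl13* went down from 132 to 64.3, 40.4 and 16.1 CPM, but 1 cell held 15 of the 21 UMIs of the lowest bin. Its carriers were 12.8%, 12.3%, 12.9% and 13.3% of cells unthinned, and 7.14%, 7.55%, 4.94% and 0% after thinning. *Ccl11* had no order (384, 653, 410 and 566 CPM). *Cxcl2* measured 0, 2.57, 9.76 and 229 CPM. In the callus (29, 34, 43 and 14 cells) *Il6* measured 21.1, 52.2, 260 and 795 CPM and *Cxcl1* 7.05, 188, 586 and 581 CPM. *Ccl7* there measured 14.1, 55.7, 160 and 229 CPM and *Ccl2* 0, 115, 140 and 275 CPM. *Cxcl2* had no order in the callus (0, 0, 77.6 and 0 CPM), with 23 of its 31 UMIs in 1 cell. *Ccl2* reached 275 CPM (163-435) in the top bin, below the 1445 CPM (1299-1602) of the intact top bin. That callus bin is thin, with 14 cells at a median of 3546.5 UMIs, and 1 cell held 16 of its 18 *Ccl2* UMIs. The cells with no UMI of the 3 genes were also shallow in both libraries, at medians of 3576 and 4871 UMIs.

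**Figure D2:**
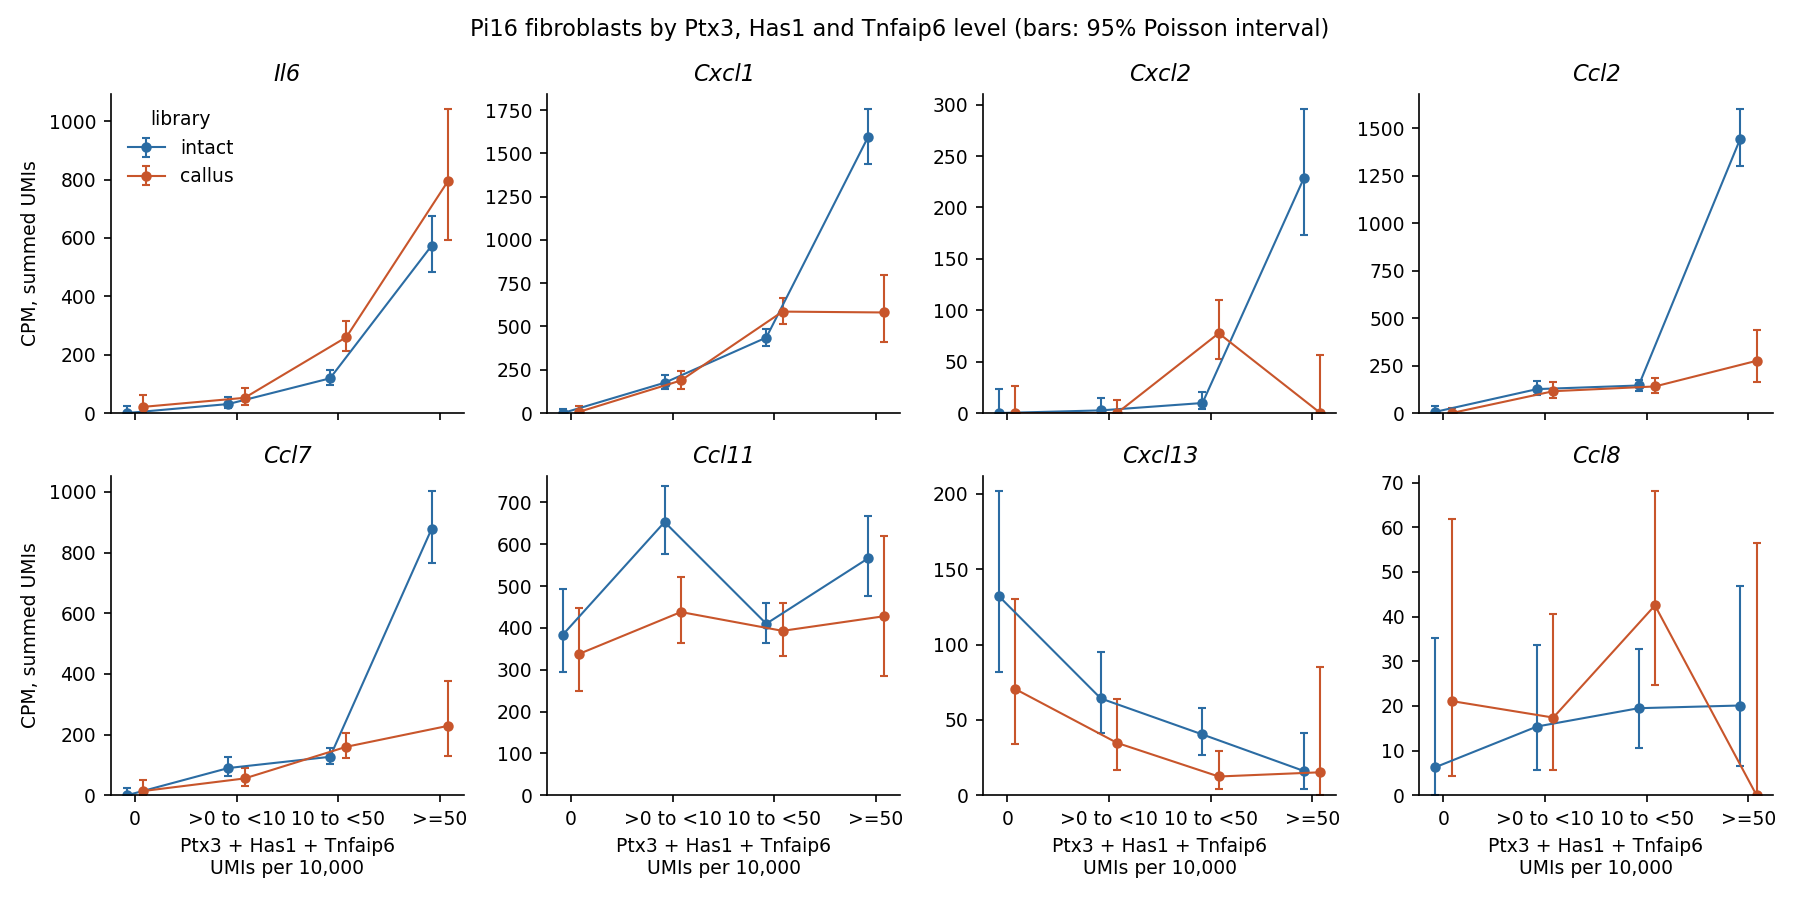
CPM of 8 genes (vertical axes, linear, each panel with its own scale) in *Pi16* fibroblasts binned by the summed UMIs of *Ptx3*, *Has1* and *Tnfaip6* per 10000 UMIs (horizontal axis), in the intact (blue) and callus (orange) libraries, with 95% Poisson intervals of counting error as bars. *Il6* goes up over the bins in both libraries, and *Ccl11* stays between 338 and 653 CPM. *Cxcl13* goes down in the intact library, where 1 cell holds 15 of the 21 UMIs of the lowest bin.

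Other genes moved with the same split, and their part in the result was not tested. Of the immediate-early and dissociation genes, 10 of 23 were at least 2-fold higher in *Ptx3*-high cells of the intact library and 20 of 23 in the callus, and the summed level of the list went from 14831 to 28023 CPM and from 12884 to 33292 CPM. *Atf3*, a stress-induced transcription factor, was 4.81-fold and 6.32-fold higher, and *Egr1*, an early growth response factor, 2.68-fold and 4.45-fold. *Fos*, with *Jun* and *Jund* among the highest of the list in fibroblasts, was 2.03-fold and 2.73-fold higher. *Junb* (2.47-fold and 3.51-fold), *Ier3* (3.89-fold and 7.20-fold), *Ier5* (4.12-fold and 4.34-fold), *Nr4a1* (3.95-fold and 6.57-fold), the phosphatase *Dusp1* (2.58-fold and 2.43-fold) and the chaperone *Dnajb1* (3.49-fold and 2.28-fold) were also higher in both. The list was higher still, at 47715 CPM, in intact *Col15a1* fibroblasts, where *Il6* stood at 19.4 CPM. *Cxcl1* in these cells was above that of *Ptx3*-low cells and level with that of all *Pi16* fibroblasts together. *Ptx3*-high cells were also deeper, with medians of 8657 against 5475 UMIs in the intact and 8944 against 6514 in the callus library.

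Of the NF-kB regulators and targets, 6 of 17 with enough UMIs were at least 2-fold higher in intact *Ptx3*-high cells, and 5 of 14 were higher and 1, *Birc3*, lower in the callus. *Nfkbiz*, an atypical IkB protein that *Il6* induction depends on in many cells, was 5.51-fold and 4.51-fold higher. *Nfkbia*, the inhibitor that NF-kB itself induces, was 2.96-fold and 2.59-fold higher, and *Zfp36*, whose protein destabilizes cytokine messenger RNAs, 2.47-fold and 5.38-fold. Of the genes of IL6 reception and signalling, 4 of 11 and 5 of 10 were at least 2-fold higher and none was lower. These included *Socs3* (3.21-fold and 3.82-fold) and *Socs1* (3.16-fold and 3.28-fold), the feedback inhibitors of JAK and STAT signalling, *Pim1* (3.51-fold and 3.56-fold), a kinase induced by STAT3, and *Cebpb* (2.80-fold and 3.04-fold), a transcription factor first described at the *Il6* promoter. *Cebpd*, its relative, had the highest level of this list in fibroblasts (1102 and 771 CPM).

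Of the other CXC ligands, *Cxcl10*, the interferon-induced ligand of CXCR3, was 6.96-fold higher in intact *Ptx3*-high cells at 178 CPM, and measured 151 CPM against 4.66 CPM in the callus (70 UMIs against 2). It was 1 of 2 genes of this list with enough UMIs in each library, and the other did not reach 2-fold. *Cxcl12*, the retention factor of marrow, measured 82.9 and 125 CPM over all fibroblasts and 13730 CPM in marrow stromal cells, and *Cxcl9* was highest in intact *Col15a1* cells at 180 CPM. All 4 genes of this list with enough UMIs were at least 2-fold higher in intact *Col15a1* than in *Pi16* fibroblasts, where 8.15% of all genes were. Of the other CC ligands, *Ccl27a*, *Ccl25* and *Ccl19* led in fibroblasts with no more than 18.6 CPM, and the 1 with enough UMIs in the intact library did not reach 2-fold. Among the companion cytokines, *Csf1*, the growth factor of macrophages, measured 177 and 137 CPM in all fibroblasts, *Il33*, an alarmin, 181 and 127 CPM, and *Tslp* 34.3 and 17.5 CPM. None of the 4 companion cytokines with enough UMIs was at least 2-fold higher in *Ptx3*-high cells of either library. That is near the share of all genes (3.88% and 4.28%). In the callus 1 was at least 2-fold lower, *Il34* at 0.346, a second ligand of the CSF1 receptor.

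The *Col15a1* fibroblasts of the intact library differed from all its *Pi16* fibroblasts in 7 of the 9 genes with enough UMIs. At least 2-fold, 2 were higher and 5 lower, where 8.15% and 16.9% of 7852 genes tested were higher and lower. *Cxcl14* was at least 1755-fold higher than 3 UMIs over the 211 *Pi16* cells would give, and *Ccl11* was 4.47-fold (3.97-5.03) higher. *Il6* was lower at a ratio of 0.123 (0.0331-0.318), *Cxcl13* at 0.279 (0.0564-0.846), *Ccl2* at 0.401 (0.264-0.586) and *Ccl7* at 0.490 (0.307-0.748), and *Cxcl2*, with 0 UMIs, was at least 2.95-fold lower. *Cxcl1* was level at 1.00 (0.810-1.23). The *Ccl7* ratio came to 0.156 without the 1 *Col15a1* and the 1 *Pi16* cell of most UMIs. *Thbs4 Cilp* fibroblasts of the intact library held *Cxcl14* and *Ccl11* at lower levels than the *Col15a1* cells, with ratios to them of 0.253 (0.215-0.297) and 0.412 (0.348-0.487). Whether *Col15a1*-like cells within the *Thbs4 Cilp* gate gave these levels was not tested.

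Callus and intact fibroblasts of the same type were then set side by side for the 3 types with the most cells. In the *Ptx3*-low *Pi16* cells, 0 of the 6 genes with enough UMIs were at least 2-fold higher in the callus and 0 lower. Of all 6171 genes tested, 3.63% and 3.52% were, so 0 of 6 is near the share of all genes. The median log2 ratio of the 6 genes was -0.38, and that of all genes 0.0103. *Ccl11* was lower at a ratio of 0.705 (0.582-0.851) and *Cxcl13* at 0.555 (0.311-0.957). The intervals of *Il6* at 1.91 (0.872-4.36), *Cxcl1* at 1.03 (0.710-1.49), *Ccl2* at 0.842 (0.525-1.33) and *Ccl7* at 0.656 (0.350-1.19) spanned 1. *Ccl11* turned to 1.12 under Leiden clusters, *Ccl7* came to 0.287 there, and *Ccl2* came to 0.413 without fibroblasts that held a *Ptprc* or *Tyrobp* UMI.

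In *Ptx3*-high *Pi16* cells, 0 of 8 genes were at least 2-fold higher in the callus and 2 were lower, against 3.98% and 4.49% of 7285 genes. *Ccl2* was lower at a ratio of 0.331 (0.256-0.424), a 3.02-fold difference (2.36-3.91), and lay between 0.256 and 0.370 with other gates, without the top cells and without cells holding leukocyte UMIs. *Cxcl13* was lower at 0.378 (0.129-0.913), from 6 UMIs against 33. *Ccl7* was lower by less than 2-fold at 0.530 (0.408-0.680), *Cxcl1* at 0.796 (0.690-0.917), and *Ccl11* was level at 0.884 (0.740-1.05). *Il6* stood apart with a higher level in the callus, 1.42-fold (1.15-1.75), but the ratio came to 0.915 under Leiden clusters and to 2.00 when each cell weighed the same. *Cxcl2* was level at 1.01 (0.634-1.57), with 1 callus cell holding 23 of 31 UMIs, and came to 0.344 without the top cells. *Ccl8* at 1.86 (0.908-3.78) was within counting error. *Ptx3* itself, a gate gene, was lower in callus *Ptx3*-high cells (361 against 728 CPM), and the heat-shock gene *Hspa1a* was 2.90-fold higher.

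**Figure D3:**
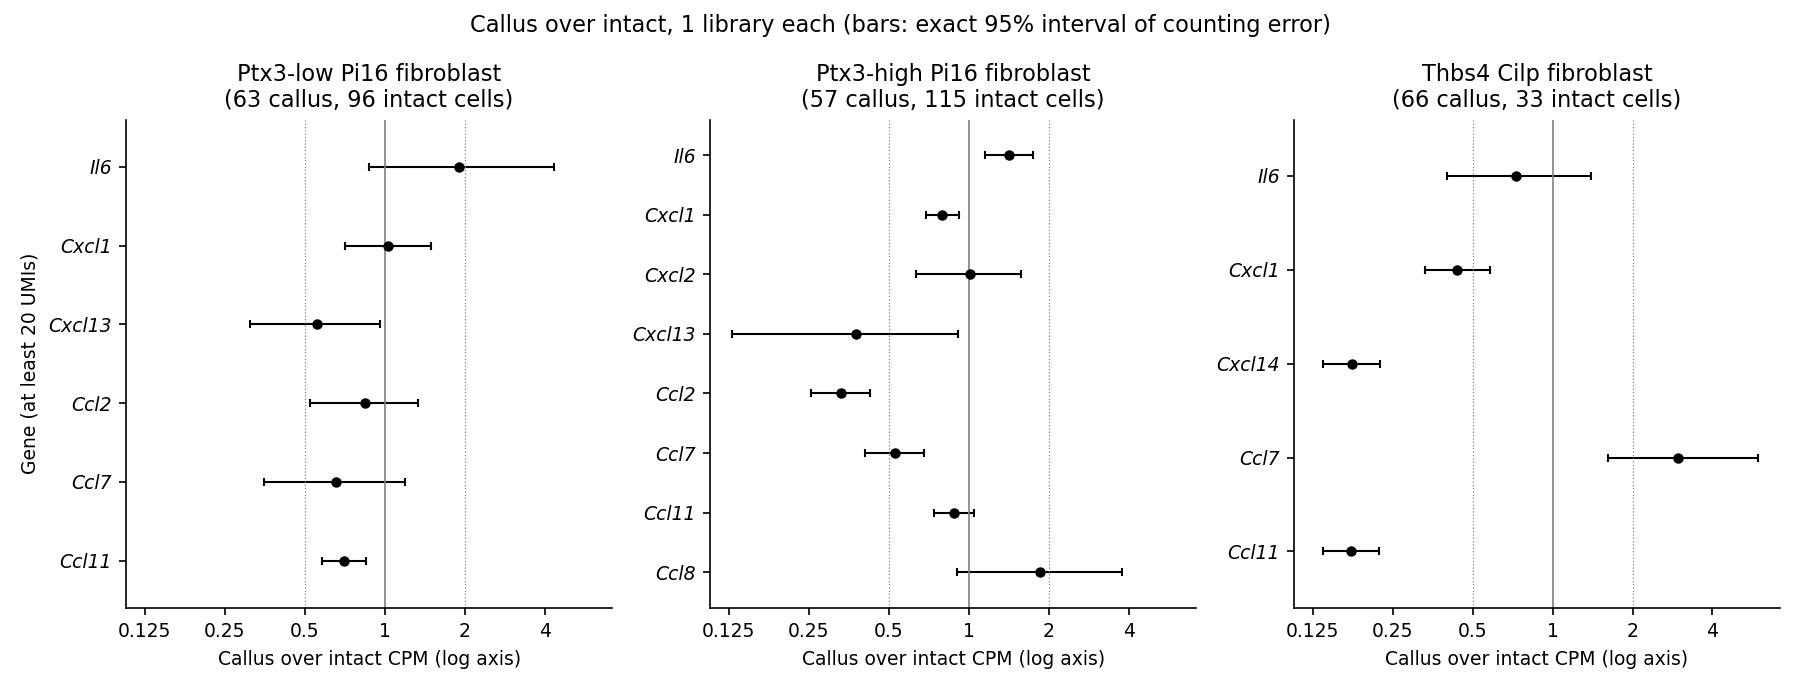
Ratio of callus to intact CPM (horizontal log axis) for the genes with at least 20 UMIs in *Ptx3*-low *Pi16*, *Ptx3*-high *Pi16* and *Thbs4 Cilp* fibroblasts, 1 library each, with exact 95% intervals of counting error. Dotted lines mark 2-fold. *Ccl2* and *Cxcl13* lie below 0.5 in *Ptx3*-high cells, and *Cxcl14* and *Ccl11* lie near 0.17 in *Thbs4 Cilp* cells.

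*Thbs4 Cilp* fibroblasts differed in more of their genes. Of 5 genes, 1 was at least 2-fold higher in the callus and 3 were lower, against 10.5% and 6.07% of 5884 genes. *Cxcl14* went from 881 to 154 CPM, a ratio of 0.175 (0.136-0.224), and *Ccl11* from 912 to 159 CPM, a ratio of 0.174 (0.136-0.222). *Cxcl14* had carriers among 14 of the 33 intact cells and 14 of the 66 from the callus, and *Ccl11* was present in 45.2% and 15.4% of thinned cells (57.6% and 22.7% unthinned). Under Leiden clusters the ratios were 0.237 for *Cxcl14* and 0.346 for *Ccl11*, both below 0.5. *Cxcl1* was lower at 0.438 (0.331-0.581), but reversed to 4.52 under the clusters, where the intact *Thbs4 Cilp* level was 33.7 CPM and the callus level 152 CPM. The higher gene, *Ccl7* at 2.96 (1.62-5.92), rested on 1 callus cell with 71 of 103 UMIs and came to 1.80 without the top cells. *Il6* at 0.731 (0.40-1.39) was within counting error and came to 2.06 without them. The intermediate fibroblasts, with 13 callus and 15 intact cells, gave wider ratios from few UMIs, such as 0.0926 (0.0105-0.381) for *Ccl2* and 4.63 (1.90-13.6) for *Il6*. All 3 neutrophil genes with enough UMIs were also higher in callus *Thbs4 Cilp* cells, among them *S100a8* at 2.07-fold and *S100a9* at 2.31-fold, and their part in these differences was not tested.

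Neutrophil transcripts were found at low levels in all fibroblasts. The 8 defining neutrophil genes summed to 177 CPM in intact and 304 CPM in callus fibroblasts, against 415673 and 376737 CPM in mature neutrophils, with 5 and 6 of 8 detected. By type the sum was 208 and 298 CPM in *Ptx3*-low, 165 and 351 CPM in *Ptx3*-high and 130 and 273 CPM in *Thbs4 Cilp* cells. It thus moved with the library in the same types in which the callus was compared. Of 4 genes with enough UMIs, 2 were 2-fold higher in callus than in intact *Ptx3*-high cells, where 3.98% of all genes were. Between *Ptx3*-high and *Ptx3*-low cells 0 of 4 were 2-fold apart in either library. That is near the share of all genes (3.88% higher and 2.12% lower in the intact library, 4.28% and 3.89% in the callus). *S100a9* gave 78.0 and 126 CPM, *S100a8* 59.3 and 107 CPM and *Camp* 14.7 and 39.6 CPM, while *Mmp8* and *Csf3r* were at 0 in both libraries. The 10 monocyte and macrophage genes summed to 11.8 and 34.9 CPM, against 25074 and 18886 CPM in monocytes. *Lyz2* led with 8.34 and 22.1 CPM, *Tyrobp* gave 0.981 and 5.24 CPM and *C1qb* 1.47 and 1.16 CPM, and *Adgre1* was at 0 in both libraries. Of these 10 genes 5 and 9 were detected. The part of leukocyte RNA in the fibroblast levels was not tested, beyond the values given without cells that held *Ptprc* or *Tyrobp*.

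Myeloid cells of the callus differed from those of the intact limb in their own way. In monocytes *Cxcl2* was lower in the callus at a ratio of 0.502 (0.431-0.586) and *Ccl2* at 0.652 (0.591-0.722), whereas *Ccl7* was 8.13-fold (2.20-67.9) higher from only 2 intact UMIs. *Il6*, from as few intact UMIs as *Ccl7*, and 1 other gene were also at least 2-fold higher. The median log2 ratio of the 5 genes with enough UMIs in monocytes was 1.66, and that of all genes 0.133. That median is the ratio of *Il6*, from 2 intact UMIs, and does not show a general rise, since *Cxcl2* and *Ccl2* were lower. The share of all genes 2-fold apart was not computed for myeloid cells, so the number of genes 2-fold apart cannot be judged there. In macrophages *Ccl2* was lower at 0.510 (0.356-0.741), *Ccl8* was 2.44-fold (1.49-4.21) higher, *Cxcl2* was 1.59-fold (1.13-2.30) higher and *Ccl7* was level at 1.12 (0.727-1.79). The intact macrophages numbered 15. *Cxcl2* in mature neutrophils was close between libraries at 0.910 (0.864-0.958). In conventional dendritic cells *Ccl2* was 309 CPM in the callus and 329 CPM in the intact library, a ratio of 0.940 (0.684-1.32), and *Cxcl2* was lower at 0.717 (0.529-0.990). The 1 other gene with enough UMIs there was at least 2-fold higher in the callus. *Ccl2* was thus lower in the callus in *Ptx3*-high fibroblasts, monocytes and macrophages but not detectably in dendritic cells, each a comparison of the same pair of libraries.

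Most of the genes were carried by few fibroblasts. The 5 highest of 286 intact fibroblasts held 78.8% of the *Cxcl2* UMIs, 54.0% of *Cxcl13*, 49.8% of *Cxcl14*, 45.1% of *Ccl7*, 44.1% of *Ccl2* and 38.2% of *Il6*, against 21.5% of *Cxcl1* and 14.3% of *Ccl11*. The smallest number of intact fibroblasts that held 50% of the UMIs was 3 for *Cxcl2*, 7 for *Ccl2*, 9 for *Il6*, 18 for *Cxcl1* and 34 for *Ccl11*. In the callus these numbers were 1, 4, 8, 12 and 21. A level of *Cxcl2*, *Ccl2*, *Ccl7* or *Il6* per type is thus set by a handful of cells, which counting intervals do not cover.

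**Figure D4:**
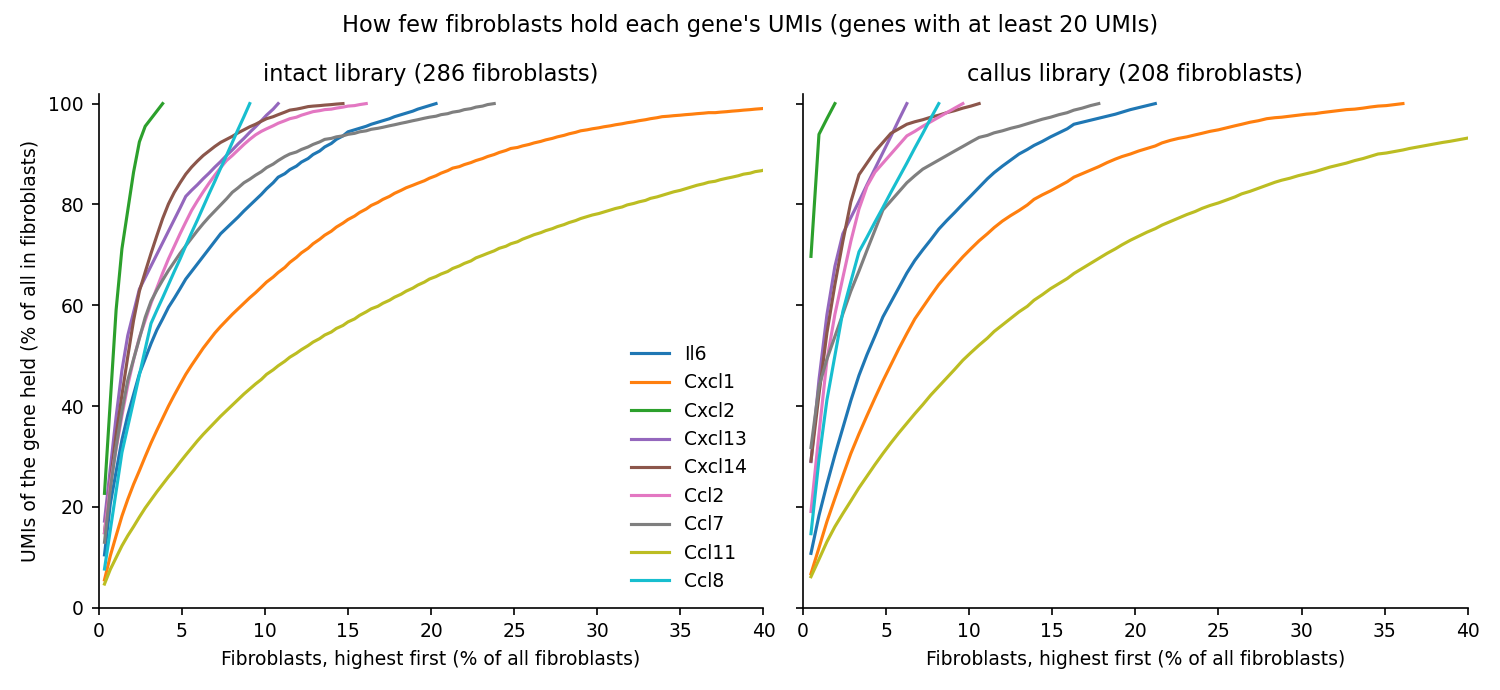
Share of a gene's fibroblast UMIs (vertical axis, %) held by the highest fibroblasts taken in order (horizontal axis, % of all fibroblasts, drawn to 40%), in the intact (286 cells) and callus (208 cells) libraries, for genes with at least 20 UMIs. The *Cxcl2* line is steepest and the *Ccl11* line flattest in both libraries.

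The genes were also found together in single cells. Of 457 fibroblasts thinned to 2000 UMIs, 134 (29.3%) carried none of the 10 genes, 162 (35.4%) carried 1, 87 (19.0%) carried 2, 46 carried 3, and 20, 7 and 1 carried 4, 5 and 6. Of the 42 *Ccl2* carriers, 64.3% also carried *Cxcl1*, 21 carried *Ccl7* and 47.6% *Il6*. Over all thinned fibroblasts, intact and callus, the shares were 30.2% and 23.1% for *Cxcl1*, 15.3% and 8.72% for *Ccl7*, and 11.8% and 14.9% for *Il6*. Of the 43 *Cxcl14* carriers, 79.1% carried *Ccl11* but 4.65% *Il6*. Of the 17 *Cxcl13* carriers, 64.7% carried *Ccl11* and 5.88% *Il6*. *Ccl11* itself was carried by 153 of the 262 intact and 78 of the 195 callus thinned fibroblasts. In the intact library 7 of 11 *Cxcl13* carriers held *Ccl11*, which is near its share over all fibroblasts. All these fibroblasts share 2 libraries and differ in depth before thinning, and the shares are descriptive.

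The receptors of these ligands were found mostly on other cells. *Cxcr2*, the receptor of CXCL1 and CXCL2, measured 532 and 611 CPM in mature neutrophils and gave 2 and 1 UMIs in all fibroblasts. *Ccr2*, the receptor of CCL2 and CCL7, measured 710 and 841 CPM in monocytes and 1098 and 898 CPM in conventional dendritic cells. *Ccr1* measured 534 and 599 CPM in mature neutrophils, and *Cxcr5*, the receptor of CXCL13, 43.0 and 28.9 CPM in B lineage cells. *Ccr3*, the eotaxin receptor, gave 0 UMIs in the 414 intact and 4 in the 1490 callus myeloid cells.

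Fibroblasts did hold the signalling chain of the IL6 receptor, *Il6st*, at 189 and 238 CPM, and the ligand-binding chain, *Il6ra*, at 64.7 and 31.4 CPM. *Il6ra* was higher in monocytes (159 and 208 CPM) and macrophages (215 and 265 CPM). They also held the atypical receptors, which bind chemokines without classical signalling. *Ackr3*, the scavenger of CXCL12, stood at 892 and 710 CPM in *Pi16* fibroblasts and 321 CPM in intact *Col15a1* cells. *Ackr2*, which binds inflammatory CC ligands such as CCL2 and CCL7, stood at 84.5 and 59.3 CPM in *Pi16* fibroblasts, and no UMI of it was found in intact *Col15a1* or callus *Thbs4 Cilp* cells. *Ackr1* measured 79.9 and 103 CPM in *Pi16* fibroblasts. None of the 3 atypical receptors, or of the 2 IL6 receptor chains, with enough UMIs was 2-fold apart between *Ptx3*-high and *Ptx3*-low cells of either library. That is near the share of all genes (3.88% higher and 2.12% lower in the intact library, 4.28% and 3.89% in the callus). All 3 atypical receptors were at least 2-fold lower in intact *Col15a1* than in *Pi16* fibroblasts, where 16.9% of all genes were. *Ackr4* was a marrow stromal gene at 224 CPM.

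**Figure D5:**
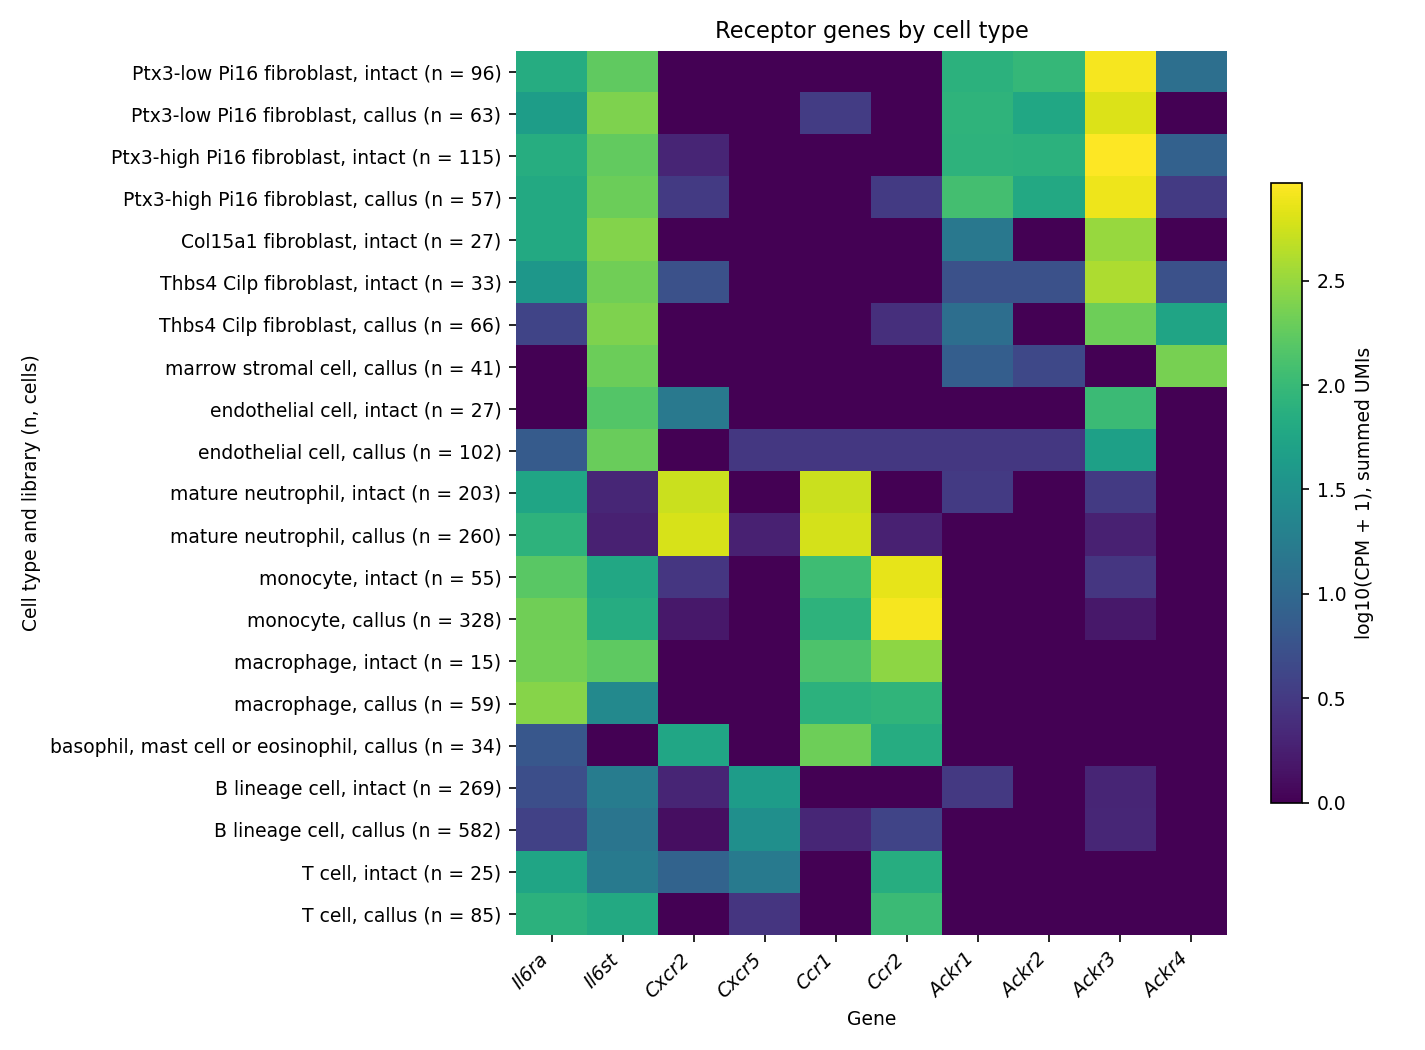
Level of receptor genes (columns) by cell type and library (rows, n in cells), as log10(CPM + 1) of summed UMIs. Dendritic cells are not drawn. Of the types drawn, *Cxcr2* and *Ccr1* are brightest in mature neutrophils, *Ccr2* in monocytes, and *Ackr3* in *Pi16* fibroblasts (892 and 710 CPM).

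Genes whose levels ran most like each of the 10 were named over the 30 groups of a cell type and library with at least 20 cells, by the Pearson correlation of log2(CPM + 10), as a description with no test, since the groups share 2 libraries. For *Ccl11* these were *Col4a5*, *Lama2* and *Adamtsl1* (0.99 each), for *Cxcl1* *Rarres2* (0.96), *Egfr* and *Ogn* (0.95 each), and for *Cxcl13* *Has2os* and *D630033O11Rik* (0.96 each) and *Aldh1a3* (0.94). For *Cxcl14* they were *Bmp5* (0.94), *Steap4* (0.93) and *Mme* (0.91), and for *Cxcl2* *Cd300ld* (0.91), *Il1b* (0.90) and *Slc11a1* (0.89). *Ccl7* ran with *S1pr2* and *Arhgap22* (0.91 each) and *Axl* (0.90), *Ccl8* with *Gdf15* (0.88), *Folr2* (0.84) and *Lyve1* (0.83), and *Ccl2* with *Naaa* (0.87), *Ifi207* (0.84) and *Mcub* (0.83). *Il6* had the weakest match, with *Adora2b* and *Ston2* at 0.81 and *Grik5* at 0.79.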

How the data were processed

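The deposited files held raw UMI counts per gene and barcode, which the authors made with Cell Ranger 6.0.0 (file header) on the mm10 build (submitters' processing notes) from 10x 3' libraries. The authors' cell annotation was not used here, and tdTomato is not among the counted genes.

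Barcodes under 500 genes or over 10% mitochondrial UMIs were left out (665 intact, 692 callus). Fibroblasts needed at least 4 of 7 general fibroblast markers (*Pdgfra*, *Dcn*, *Lum*, *Col1a2*, *Col3a1*, *Serpinf1*, *Clec3b*) and at most 1 of 4 leukocyte markers; other types were gated on marker lists, and 70 intact and 315 callus cells passed no gate. The 10 genes and the gene lists were chosen with earlier results of these data known, and gate limits were set after marker distributions were seen. UMIs were summed per type and library and scaled to CPM. Intervals were exact (Poisson for levels, Clopper-Pearson for shares, conditional binomial for ratios; SciPy 1.17.1). A difference was counted at 2-fold among genes with at least 20 UMIs in both groups together, with the same share over all such genes beside it. Genes at 0 were set to 3 UMIs per group for bounds. Shares of carriers were taken after thinning each cell to 2000 UMIs, which left out 24 intact and 13 callus fibroblasts. Scrublet (Scanpy 1.11.5) called 3 of 1207 and 4 of 3295 cells as doublets (0.249% and 0.121%), too few to trust, so no doublets were removed. Replicates were lacking (n = 1 library per condition, 3 mice pooled), so no test was made.

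From each gene list the text names the 3 genes with the highest level in fibroblasts and those at least 2-fold apart, with at least 50 UMIs, between *Ptx3*-high and *Ptx3*-low cells of both libraries or between libraries in more than 1 fibroblast type. *Ccr1*, *Ccr2*, *Cxcr5*, *Ccr3*, *Ackr4*, *Il34*, *Birc3*, *Hspa1a*, *Mmp8*, *Csf3r* and *Adgre1* were added after their values were seen. A gene of the receptor list is not reported here. The ratios and their intervals were tested on simulated counts, and the thinning was checked on the *Ptx3*-high cells. Alternatives were other cell filters, Leiden clusters made without the 10 genes, removal of high Scrublet scores, removal of fibroblasts with leukocyte UMIs, equal weight of cells, removal of the top cell, other thinning depths and other UMI minimums.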

Additional observations from a re-analysis of the deposited data

Results flagged for a closer look

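*Cxcl2* appeared in barcodes that entered no comparison. The 692 callus barcodes left out for few genes or much mitochondrial RNA held 27 *Cxcl2* UMIs, 11.1 CPM (7.33-16.2), against 4 UMIs, 0.871 CPM (0.237-2.23), in the 665 left-out intact barcodes. The level lay below the 66.7 CPM of callus *Ptx3*-high fibroblasts and the 2692 CPM of callus mature neutrophils. The left-out barcodes held 2426781 UMIs in the callus and 4593207 in the intact library.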

How the results depend on the processing

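No paired analysis was possible because each condition was 1 library and no test was made. Counts of genes at least 2-fold apart changed as follows. For callus over intact in *Ptx3*-low cells, 1 was higher (0 as reported) with each cell weighing the same, and 1 was lower (0 as reported) with Leiden clusters, without cells holding leukocyte UMIs, with equal weights and without the top cell. With at least 100 UMIs required, 1 was lower in *Ptx3*-high cells (2 as reported), 0 were lower for *Ptx3*-high over *Ptx3*-low in both libraries (1 each), 3 were higher there in the callus (5), and 3 were lower in *Col15a1* over *Pi16* cells (5). The shares of all genes with at least 100 UMIs were, in the same order, 1.12%, 0.163% and 0.558%, 5.37%, and 14.9%. Such shares were computed for the UMI minimums only, not for the other alternatives. Without the top cell, 0 were lower in callus *Ptx3*-high cells than in *Ptx3*-low ones (1). In *Thbs4 Cilp* cells 3 were higher under Leiden clusters (1 as reported), and *Cxcl1* there reversed from 0.438 to 4.52. The cause was not tested. Of 41 ratios, 0 moved beyond counting error under both other cell filters and after removal of 12 intact and 87 callus cells with high Scrublet scores, 2 without cells holding leukocyte UMIs, 6 with equal weights, 7 of the 40 that could be computed without the top cell, and 17 of the 37 that could be computed under clusters, where 1 more reversed. A reversal was counted only where the reported ratio was at least 2-fold. Smaller ratios that crossed 1 under clusters count as moved, such as *Ccl11* in *Ptx3*-low and *Il6* in *Ptx3*-high cells for callus over intact. Levels moved more often: of 85, 41 without the top cell, 34 with equal weights, 3 with the stricter cell filter, 1 without cells holding leukocyte UMIs and 0 otherwise, and 28 of 69 under clusters. Of 85 carrier shares, 50 moved when a carrier needed 2 UMIs, 41 without thinning, 29 with deeper thinning and 25 with lighter thinning. Cluster-based levels were made for fibroblasts only. Depth limits the faint genes: 3 UMIs in callus osteoblasts were 5.24 CPM.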
